A study of Homo sapiens with 4 samples.

Results

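The 9 genes described here encode matrix proteases and the proteins that control them: the matrix metalloproteinases MMP1, MMP3 and MMP10, the plasminogen activators PLAU and PLAT, the urokinase receptor PLAUR, and the tissue inhibitors of metalloproteinases TIMP1, TIMP2 and TIMP3. They were taken by gene symbol, and all 9 were among the 26364 symbols of the count tables. Of the 9, 8 passed the filter on low counts and were tested, each at 1 CPM (reads counted for a gene relative to the library's total, scaled between libraries) or more in all 4 libraries, whereas MMP3 was not tested. RNA came from NCI-H460, an established line of human non-small cell lung cancer cells. Cells were left unirradiated (0 Gy) or given 4 Gy from a gamma source, and then spent 48 h in DMSO, the solvent, or in 2 uM 3-deazaneplanocin A (DZNep). DZNep inhibits S-adenosylhomocysteine hydrolase and so slows methylation reactions, among them histone methylation by EZH2. Each of the 4 combinations of drug and dose is 1 library, named by both (DMSO 0 Gy and so on), and runs of 4 values are given for DMSO first and DZNep second, with 0 Gy before 4 Gy in each. As a model this is 1 cell line in culture, without the stromal and blood cells of a tumour.

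Metalloproteinases of this family are secreted as inactive proenzymes and cut collagens, proteoglycans and other matrix proteins once their propeptide is removed. Plasmin, which the activators PLAU and PLAT release from plasminogen, is one of the enzymes that remove it, and PLAUR holds PLAU at the cell surface. TIMPs bind the active site of metalloproteinases, while inhibitors of the serpin family block the plasminogen activators.

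Totals were 112461380 to 136594350 counts per library. In the additive model of drug and dose over all 4 libraries, 10.8% of the 13378 tested genes were higher with DZNep and 12.3% lower. After radiation 2.17% were higher and 0.897% lower (290 and 120 genes, but 364 and 281 under plain library size scaling). The labelled cell type, a carcinoma line, was checked on 6 epithelial markers, of which 4 passed the filter: KRT8 stood at 709.97 to 2052 CPM and KRT18 at 634 to 2073 CPM, but EPCAM and CDH1 stayed under 1 CPM in every library. Their sum was 1505 and 1779 CPM in DMSO and 3902 and 4319 CPM in DZNep, carried by KRT8 and KRT18, and their part in the results below was not tested. KRT19 went the other way, at 153.5 and 248 CPM in DMSO and 146 and 178 CPM in DZNep, as did EPCAM, from 0.492 and 0.446 CPM to 0.170 and 0.0440 CPM. Of the other marker genes, endothelial ones summed to 0.246 to 0.944 CPM. Fibroblast markers summed to 22.8 to 37.5 CPM and blood markers to 68.3 to 98.6 CPM, the latter nearly all CD68 (60.2 to 88.4 CPM), while PTPRC was at 0 in 3 of the libraries and at 0.0579 CPM in DMSO 0 Gy. Neither sum was higher in the DZNep library than in the DMSO library of the same dose.

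With DZNep the tested metalloproteinases, plasminogen activators and receptor passed the test as higher, and none of the TIMPs did. The TIMP3 value (log2 fold change 0.36, SE 0.29) was near that of PLAUR (0.48, SE 0.14) but less certain. Inhibitors outside the 9 members are described below, and some of them rose, among them SERPINE2 and TFPI2, while others did not pass. MMP1 rose 6.42-fold, PLAU 2.5-fold, MMP10 2.23-fold, PLAT 1.79-fold and PLAUR 1.398-fold, whereas TIMP2 fell and TIMP1 and TIMP3 did not pass the test. In total 5 of the 8 tested members rose and 1 fell, against 10.8% and 12.3% of all tested genes, with a median log2 fold change of 0.66 against -0.02 over all tested genes. After radiation only PLAU passed, as 1 of 8 members against 2.17% of tested genes that rose, with a median of 0.36 against 0.01. The genes were chosen with earlier results of these libraries known, so these shares describe the 9 genes and do not test them as a group. In bulk RNA, more transcripts per cell and more cells with the transcript cannot be told apart.

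**Figure D1:**
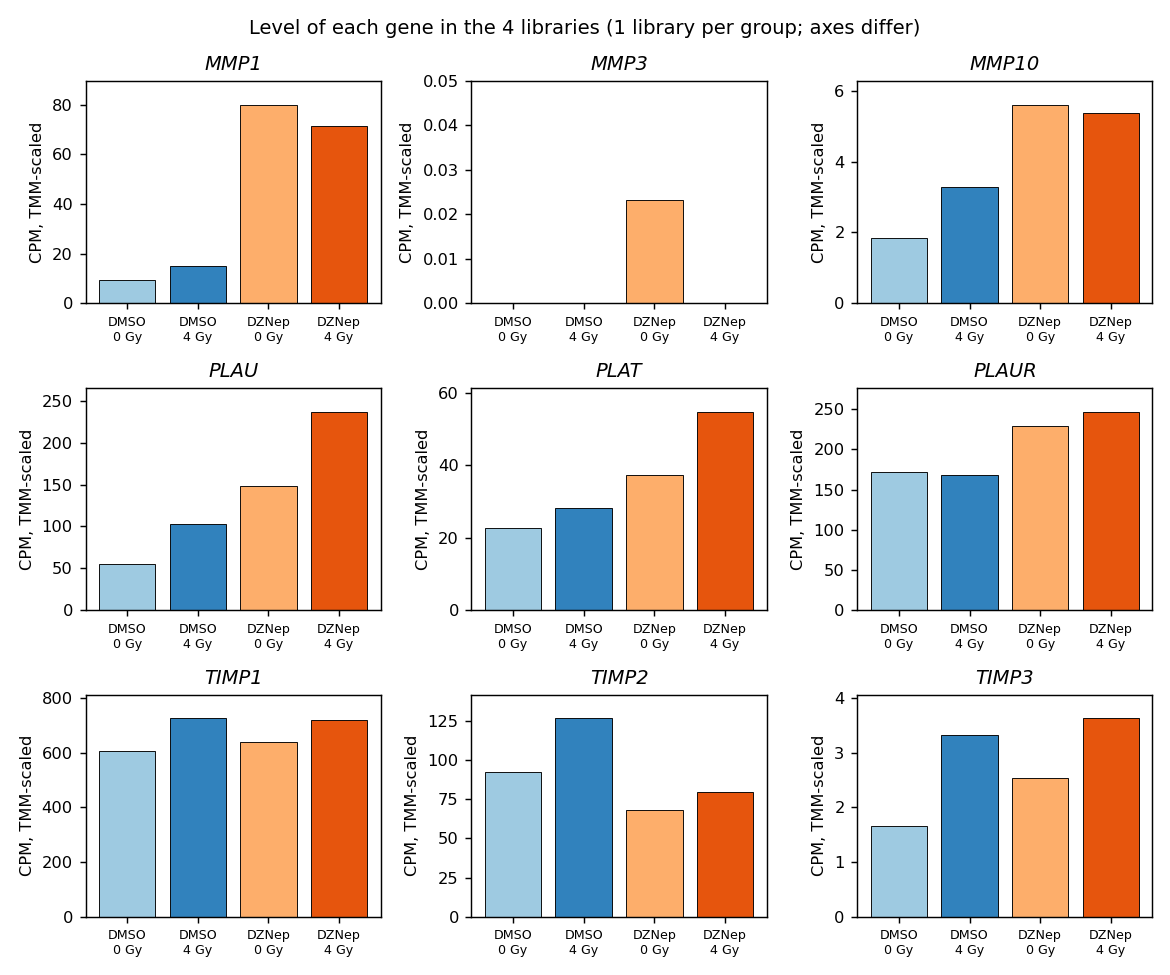
Level of each of the 9 genes in TMM-scaled CPM (vertical axes, each from 0 and of different height) in the 4 libraries, 1 bar per library. MMP1 reached 71.3 and 80.0 CPM with DZNep against 9.25 and 14.95 CPM in DMSO, while TIMP1 ranged from 606 to 724 CPM over all 4.

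MMP1 encodes the interstitial collagenase, which cleaves fibrillar collagens. It stood at 9.25 CPM in DMSO 0 Gy (1278 counts), 14.95 CPM in DMSO 4 Gy (1677), 79.98 CPM in DZNep 0 Gy (10336) and 71.3 CPM in DZNep 4 Gy (8096). Both DZNep libraries lay far above both DMSO libraries. The log2 fold change with DZNep was 2.68 (SE 0.21, adjusted p = 7.2e-06, edgeR's quasi-likelihood test with Benjamini-Hochberg adjustment), rank 51 of 13378 tested genes from the highest. Its ratio was 3.11 on the log2 scale at 0 Gy (interval 3.03 to 3.20) and 2.25 at 4 Gy (2.18 to 2.33). These and all later intervals of 2-library ratios are exact 95% intervals that cover counting error only.

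MMP10 encodes stromelysin 2, which degrades proteoglycans and can activate other proenzymes of the family. It was a low-count gene, with 1.84 CPM in DMSO 0 Gy, 3.28 CPM in DMSO 4 Gy, 5.61 CPM in DZNep 0 Gy and 5.38 CPM in DZNep 4 Gy. The DZNep libraries were again the higher pair, and they did not overlap with the DMSO pair. MMP10 rose by 1.16 on the log2 scale (SE 0.29, adjusted p = 0.0134).

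MMP3, stromelysin 1, had 3 counts in DZNep 0 Gy and 0 in each of the other libraries. A count of 0 allows up to 3 counts, or 0.0217 to 0.0267 CPM depending on the library, so MMP3 was not detectable above that floor and no direction can be read. MMP10, MMP1 and MMP3 are adjacent protein-coding genes on chromosome 11, in that order between MMP8 and MMP12 in RefSeq. The neighbours gave few counts: MMP27 and MMP12 had 0 counts in all 4 libraries, MMP7, MMP13 and MMP20 had between 0 and 12 in each, and MMP8 had 18 in DZNep 4 Gy and 0 in the others. Within this gene cluster, MMP1 and MMP10 were thus the genes with more than 18 counts in any library.

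A pseudogene transcript, WTAPP1, lies on the strand opposite to MMP1 and shares 150 exonic bases with it in GENCODE 29. WTAPP1 had 117 counts in DMSO 0 Gy, 190 in DMSO 4 Gy, 1267 in DZNep 0 Gy and 1072 in DZNep 4 Gy, and it also rose with DZNep (log2 fold change 2.99, SE 0.30, adjusted p = 3.3e-05). Its count was 9.15% to 13.2% of the MMP1 count. Whether the counting used strand is not given in the sources used here, so reads in the shared bases cannot be assigned to 1 of the 2 genes. The span of WTAPP1 also covers MMP3 and MMP10 but shares no exonic base with them.

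PLAU encodes urokinase, the plasminogen activator that acts at the cell surface. It stood at 54.96 CPM in DMSO 0 Gy, 102.8 CPM in DMSO 4 Gy, 148.9 CPM in DZNep 0 Gy and 237.7 CPM in DZNep 4 Gy. The library with both treatments was the highest and the one with neither the lowest, 4.32-fold apart. The log2 fold change was 1.32 with DZNep (SE 0.15, adjusted p = 9.1e-05) and 0.79 with radiation (SE 0.15, adjusted p = 0.0178, both edgeR's quasi-likelihood test). PLAU was the member that passed as higher under both factors. Each of its 4 ratios between 2 libraries lay above 0, as did those of PLAT and TIMP3. The interval of the TIMP3 ratio with DZNep at 4 Gy (-0.08 to 0.33) includes 0, however. How many of all tested genes had 4 ratios above 0 was not computed.

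C10orf55, on the opposite strand, shares 771 exonic bases with PLAU. Its counts were 1418 in DMSO 0 Gy, 2149 in DMSO 4 Gy, 3610 in DZNep 0 Gy and 5026 in DZNep 4 Gy. These were 18.6% to 18.8% of the PLAU count in every library, and its log2 fold changes (1.33 with DZNep, 0.78 with radiation) were close to those of PLAU. Reads in the shared bases cannot be assigned to 1 of the 2 genes here either.

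PLAT encodes tissue plasminogen activator, the secreted activator best known from fibrin clot breakdown. It stood at 22.6 CPM in DMSO 0 Gy, 28.3 CPM in DMSO 4 Gy, 37.4 CPM in DZNep 0 Gy and 54.9 CPM in DZNep 4 Gy, the same order of libraries as PLAU. With DZNep it rose by 0.84 on the log2 scale (SE 0.16, adjusted p = 0.00329). The radiation value was 0.44 (SE 0.16, adjusted p = 0.152) and did not pass.

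PLAUR encodes the surface receptor that binds urokinase. Its levels were 172 CPM in DMSO 0 Gy, 168 CPM in DMSO 4 Gy, 229 CPM in DZNep 0 Gy and 247 CPM in DZNep 4 Gy. The DMSO libraries lay close together and below both DZNep libraries. Its log2 fold change with DZNep was 0.48 (SE 0.14, adjusted p = 0.0301), the smallest of the 5 rises, and with radiation it was 0.04 (SE 0.14, adjusted p = 0.913).

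**Figure D2:**
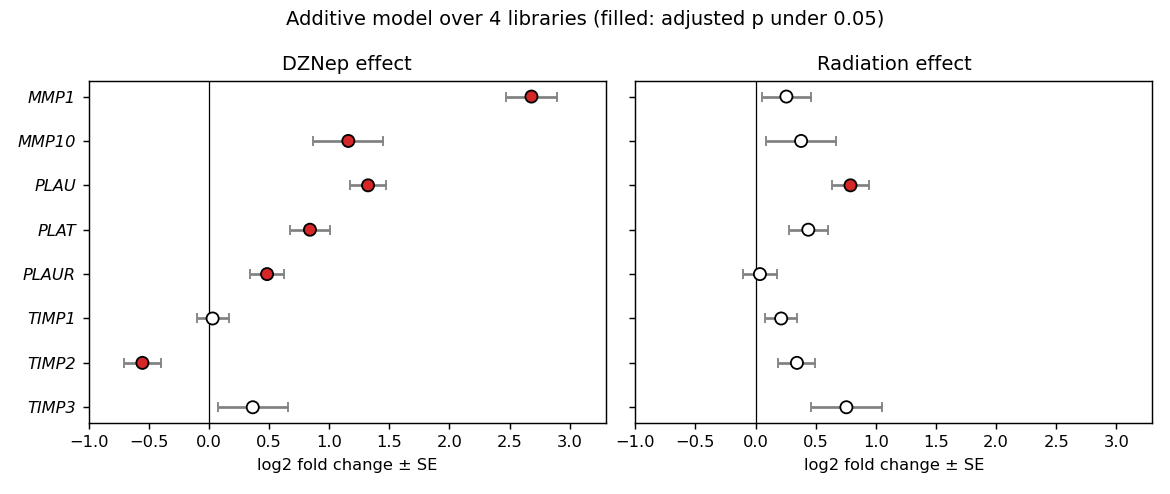
Log2 fold changes of the 8 tested genes with DZNep (left) and with radiation (right) from the additive model, with bars of 1 SE; filled points passed an adjusted p of 0.05. MMP1 lies farthest to the right at 2.68 under DZNep, TIMP2 is the filled point below 0 at -0.55, and PLAU at 0.79 is the filled point under radiation.

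TIMP1 encodes a secreted inhibitor of most metalloproteinases and was the most abundant of the 9 transcripts. It stood at 606 CPM in DMSO 0 Gy, 724 CPM in DMSO 4 Gy, 639 CPM in DZNep 0 Gy and 718 CPM in DZNep 4 Gy. The DMSO and DZNep libraries overlapped, and the higher 2 were those at 4 Gy. The log2 fold change was 0.03 with DZNep (SE 0.13, adjusted p = 0.892) and 0.21 with radiation (SE 0.13, adjusted p = 0.395), and neither passed.

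TIMP2, an inhibitor that also takes part in the surface activation of MMP2, was the member that fell. Its levels were 92.2 CPM in DMSO 0 Gy, 126 CPM in DMSO 4 Gy, 67.9 CPM in DZNep 0 Gy and 79.7 CPM in DZNep 4 Gy. Both DZNep libraries lay below both DMSO libraries, and the log2 fold change was -0.55 (SE 0.15, adjusted p = 0.0219). With radiation it was 0.34 (SE 0.15, adjusted p = 0.228), which did not pass. CEP295NL, which lies within the TIMP2 locus on the same strand without shared exonic bases, followed the same order (27.7, 38.4, 19.4 and 26.8 CPM). It fell by 0.52 with DZNep (adjusted p = 0.0387, edgeR). AC022966.1, on the opposite strand, shares 367 exonic bases with TIMP2. It is not among the counted symbols, so its part in the TIMP2 counts is not known.

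TIMP3, the inhibitor that is bound to the matrix, was low at 1.66 CPM in DMSO 0 Gy, 3.33 CPM in DMSO 4 Gy, 2.54 CPM in DZNep 0 Gy and 3.63 CPM in DZNep 4 Gy. The 4 Gy libraries were the higher pair, and the DMSO and DZNep libraries overlapped. The log2 fold change was 0.36 with DZNep (SE 0.29, adjusted p = 0.401) and 0.75 with radiation (SE 0.29, adjusted p = 0.168), so a value close to that of PLAU under radiation did not pass at these counts of 230 to 412.

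The model has 1 residual degree of freedom, which is how far the 4 libraries depart from additive drug and dose effects. Its error estimate also draws on all tested genes, at 11.5 prior degrees of freedom. No spread between replicates enters its p-values, and nothing in the labels shows the libraries to be separate cultures. Without dose in the model MMP1 alone of the 6 DZNep calls remained past the threshold: adjusted p was then 0.105 for MMP10, 0.0664 for PLAU, 0.0915 for PLAT, 0.151 for PLAUR and 0.173 for TIMP2, each the highest over its alternatives (lowest 0.00734, 1.7e-13, 2.0e-05, 0.0120 and 0.00567). Without drug in the model PLAU did not pass under radiation (adjusted p = 0.998, lowest over alternatives 0.000115). PLAUR was also lost without the filter on low counts (adjusted p = 0.0530).

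Library by library, the DZNep ratios of the 8 genes ran from -0.44 to 3.11 at 0 Gy and from -0.66 to 2.25 at 4 Gy. Of the 6 members that reached 10 CPM in 1 library of the pair, MMP1 and PLAU were at least 2-fold higher with DZNep at either dose, against 3.61% of genes at 0 Gy and 3.24% at 4 Gy. None of the 6 was at least 2-fold lower, against 3.61% and 3.92%. PLAU had ratios of 1.44 (interval 1.40 to 1.48) and 1.21 (1.18 to 1.24) at 0 and 4 Gy. PLAT (0.72 and 0.95) and PLAUR (0.41 and 0.56) had the larger ratio at 4 Gy, and so did the fall of TIMP2 (-0.44 and -0.66). TIMP1 was the 1 member of 8 whose DZNep ratio changed sign between doses (0.07 and -0.01), against 25.8% of tested genes. Its interval at 4 Gy (-0.028 to 0.0005) includes 0.

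**Figure D3:**
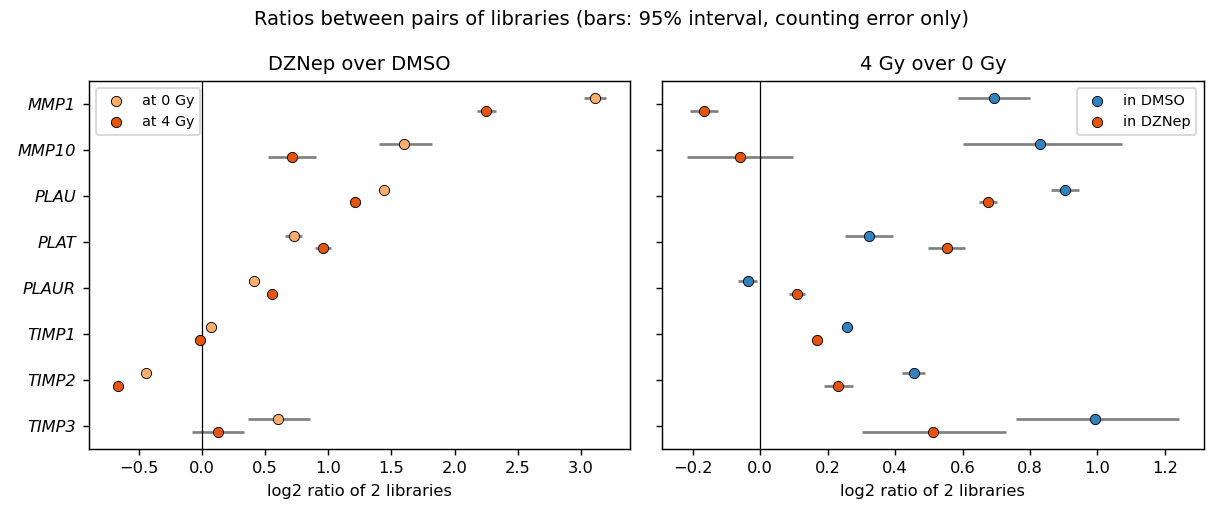
Log2 ratios between pairs of libraries for the 8 genes, DZNep over DMSO at each dose (left) and 4 Gy over 0 Gy in each solvent or drug arm (right), with 95% intervals for counting error. MMP1 and MMP10 lie to the right of 0 in DMSO (0.69 and 0.83) and to its left in DZNep (-0.17 and -0.06).

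The radiation ratio of MMP1 was 0.69 in DMSO (interval 0.59 to 0.80) and -0.17 in DZNep (-0.21 to -0.12). That of MMP10 was 0.83 (0.60 to 1.07) and -0.06 (-0.22 to 0.10). Both metalloproteinases were thus higher at 4 Gy in DMSO, with ratios just below 0 in DZNep, a pattern of signs that 15.7% of tested genes had. PLAUR had opposite signs too, at -0.04 in DMSO and 0.11 in DZNep. In total 3 of 8 members did, which is close to the 34.3% of tested genes and is not read as a result about the members. The difference between both ratios was -0.86 for MMP1 and -0.89 for MMP10, inside the middle 95% of tested genes (-1.10 to 0.94). That range includes genes with low counts and was not computed for genes at the level of MMP1. With 1 library per group this difference has no error estimate and could not be tested.

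PLAU was higher at 4 Gy in both arms, with ratios of 0.90 (interval 0.86 to 0.95) in DMSO and 0.67 (0.65 to 0.70) in DZNep. PLAT had 0.32 (0.25 to 0.39) in DMSO and 0.55 (0.50 to 0.61) in DZNep. In DMSO and DZNep the ratios were 0.26 and 0.17 for TIMP1, 0.46 and 0.23 for TIMP2, and 0.99 and 0.51 for TIMP3. No TIMP passed the radiation test, and the share of all tested genes above 0 in both arms was not computed. None of the members at 10 CPM or more reached 2-fold in either arm, against 2.06% of genes in DMSO and 0.9% in DZNep that were at least 2-fold higher and 0.988% and 0.2% that were at least 2-fold lower.

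Levels were compared between genes per kilobase of exon (GENCODE 29), since longer transcripts give more counts. On that scale the order in DMSO 0 Gy was TIMP1 (416 CPM per kb), PLAUR (78.3), TIMP2 (22.6), PLAU (20.5), PLAT (8.21), MMP1 (4.69), MMP10 (1.05) and TIMP3 (0.362). In DZNep 4 Gy it was TIMP1 (492 CPM per kb), PLAUR (112), PLAU (88.4), MMP1 (36.2), PLAT (19.9), TIMP2 (19.6), MMP10 (3.06) and TIMP3 (0.788). TIMP2 and PLAU were close in DMSO 0 Gy, as were PLAT and TIMP2 in DZNep 4 Gy, and with 1 library these neighbours cannot be ranked beyond counting error.

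Ratios between members within a library do not depend on scaling between libraries. TIMP1 exceeded MMP1 per kb by 88.6-fold in DMSO 0 Gy and 65.4-fold in DMSO 4 Gy, but by 10.8-fold in DZNep 0 Gy and 13.6-fold in DZNep 4 Gy. TIMP2 per kb was 4.82 and 4.09 times MMP1 in the DMSO libraries at 0 and 4 Gy and 0.410 and 0.541 times MMP1 in the DZNep libraries. Per kb the order of these 2 genes was thus opposite with and without the drug. By counts TIMP2 was at 84.9% of MMP1 in DZNep 0 Gy but at 112% in DZNep 4 Gy, so the order there depends on the exon lengths used. PLAUR exceeded its ligand PLAU per kb by 3.83-fold in DMSO 0 Gy, 1.99-fold in DMSO 4 Gy, 1.88-fold in DZNep 0 Gy and 1.27-fold in DZNep 4 Gy. The 3 inhibitors together made up 79.6% and 79.7% of the members' summed CPM per kb in the DMSO libraries at 0 and 4 Gy, and 67.7% and 66.3% in the DZNep libraries. The metalloproteinases made up 1.04% and 1.43% in DMSO and 6.52% and 5.08% in DZNep. PLAU, PLAT and PLAUR together made up 19.4% and 18.8% in DMSO and 25.8% and 28.6% in DZNep. The summed level of the TIMPs was 439 and 528 CPM per kb in DMSO and 455 and 512 in DZNep, so their lower share came with larger sums of the other members. Inhibitors outside the members, such as SERPINE2, are not part of these shares.

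**Figure D4:**
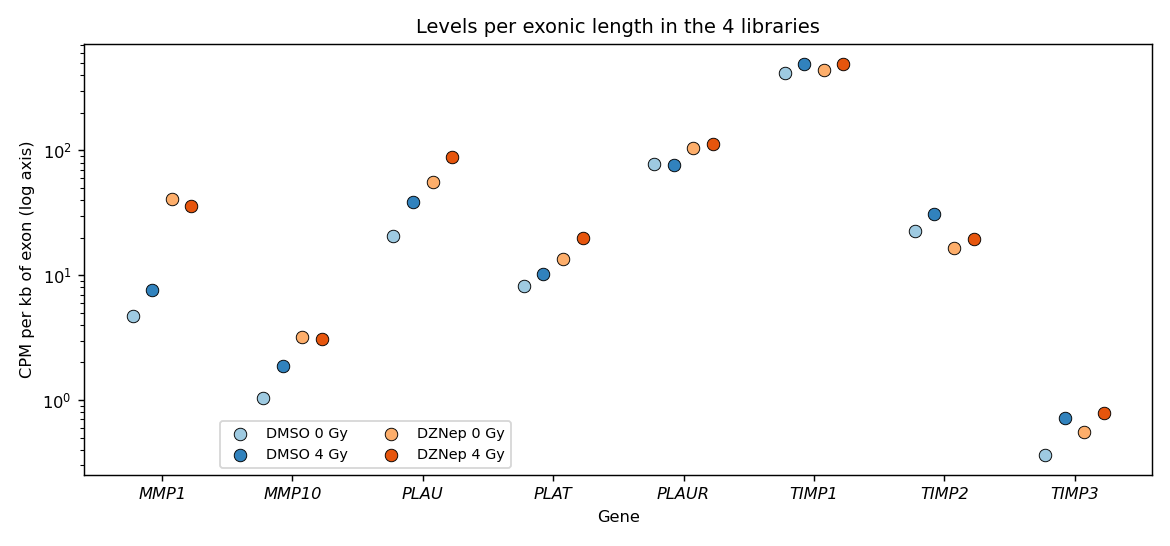
Level of the 8 tested genes in CPM per kb of exon (log axis) in the 4 libraries, 1 point per library. TIMP1 lies highest at 416 to 497 CPM per kb, and the MMP1 points of the DZNep libraries (40.6 and 36.2) lie above those of TIMP2 (16.7 and 19.6), which is the reverse of DMSO.

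Promoter sequences were taken from RefSeq (GRCh38.p14). By symbol, 5 of the 9 members matched, MMP10, PLAU (2 starts), PLAUR, TIMP1 and TIMP3. The 250 bases before the start were searched on both strands for 5 motifs that do not overlap one another in these windows. They were the AP-1 motif of FOS and JUN factors, TGAGTCA, and the cyclic AMP element (CRE), TGACGTCA. The others were an ETS factor core, AGGAAG, the TATA box, TATAAA, and an NF-kB motif (3 G, any 2 bases, 3 T, 2 C). Of 35116 promoters in the table, 4.2% hold the AP-1 letters, 1.65% CRE, 28.7% ETS, 1.73% NF-kB and 10.7% TATA. The 3 windows below belong to a metalloproteinase, the activator and its receptor, all of which rose with DZNep, and capitals mark every match. They are MMP10 (chr11:102780629-102780878, minus strand), the downstream start of PLAU (chr10:73910882-73911131, plus strand) and PLAUR (chr19:43670170-43670419, minus strand).
MMP10: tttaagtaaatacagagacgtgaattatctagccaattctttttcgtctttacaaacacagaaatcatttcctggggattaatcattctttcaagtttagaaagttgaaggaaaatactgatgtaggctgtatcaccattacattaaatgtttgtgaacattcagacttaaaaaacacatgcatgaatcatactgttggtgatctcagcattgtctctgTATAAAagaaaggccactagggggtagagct
PLAU: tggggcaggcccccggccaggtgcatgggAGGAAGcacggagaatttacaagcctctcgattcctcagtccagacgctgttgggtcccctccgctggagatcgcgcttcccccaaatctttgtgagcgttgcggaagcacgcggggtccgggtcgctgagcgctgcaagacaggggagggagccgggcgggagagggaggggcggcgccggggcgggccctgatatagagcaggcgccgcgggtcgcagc
PLAUR: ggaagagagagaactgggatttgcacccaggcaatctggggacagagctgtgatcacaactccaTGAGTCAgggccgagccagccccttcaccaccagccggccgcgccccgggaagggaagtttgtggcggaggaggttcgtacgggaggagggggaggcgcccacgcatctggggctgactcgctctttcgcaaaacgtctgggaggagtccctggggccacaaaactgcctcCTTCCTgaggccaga
MMP10 has the TATA letters at bases -31 to -26 before the start, and its window is 34.4% G and C, the lowest of the 6. PLAU has the ETS letters at -221 to -216 and a window of 68.8% G and C. PLAUR has the AP-1 letters at -186 to -180 and the ETS letters on the other strand at -15 to -10. TIMP1, which did not pass the test, also has the ETS letters, at -87 to -82, and the upstream PLAU start and TIMP3 held none of the 5 motifs. A match is a run of letters and no evidence of binding in these cells.

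Among the other plasminogen system genes on a list of 15, 9 were tested, of which 3 rose and 2 fell with DZNep, against 10.8% and 12.3% of all tested genes (median 0.18 against -0.02). SERPINE2, protease nexin 1, an inhibitor of PLAU and thrombin, stood at 1396 CPM in DMSO 0 Gy, 2689 CPM in DMSO 4 Gy, 5868 CPM in DZNep 0 Gy and 6861 CPM in DZNep 4 Gy (log2 fold change with DZNep 1.71, SE 0.16, adjusted p = 2.4e-05, edgeR). TFPI2, a Kunitz inhibitor of plasmin, rose by 1.18 (SE 0.13), from 1052 and 997 CPM in DMSO to 2618 and 2069 CPM in DZNep at 0 and 4 Gy. SERPINB2, another inhibitor of PLAU, did not pass with DZNep (0.21, adjusted p = 0.462; 117 to 184 CPM).

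PLGRKT, a plasminogen receptor, fell by 0.90 (SE 0.24), and S100A10, the partner of ANXA2 in binding plasminogen, fell by 0.46 (adjusted p = 0.0341, edgeR). S100A10 was named after its values were seen. PLG, the gene of plasminogen itself, had 4 counts in DMSO 4 Gy and 0 in the other libraries. After radiation 2 of the 9 rose, against 2.17% of all tested genes (median 0.10 against 0.01). Among them was LRP1, an endocytic receptor that takes up protease complexes. LRP1 stood at 12.3 CPM in DMSO 0 Gy, 36.4 CPM in DMSO 4 Gy, 10.3 CPM in DZNep 0 Gy and 22.2 CPM in DZNep 4 Gy (radiation 1.34, SE 0.19, adjusted p = 0.00292, edgeR).

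Of 21 other metalloproteinase symbols, 3 had no count in any library and 7 were tested. With DZNep 2 rose and 1 fell, against 10.8% and 12.3% of all tested genes, with a median of 0.17 against -0.02. MMP24, a membrane-type enzyme, rose by 1.19 (SE 0.32), from 1.06 and 2.23 CPM in DMSO at 0 and 4 Gy to 3.22 and 3.82 CPM in DZNep. MMP15, also of the membrane type, rose by 0.71 (SE 0.196), from 15.2 and 9.51 CPM to 20.4 and 19.1 CPM. MMP19 fell by 1.73 (SE 0.28, adjusted p = 0.000988, edgeR), from 4.12 and 7.36 CPM to 1.46 and 1.88 CPM. The gelatinase genes MMP2 and MMP9 and the membrane-type enzyme MMP14 stayed under 1 CPM in every library. After radiation 0 of the 7 passed, against 3.06% of all tested genes in either direction.

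Other inhibitors and inducers of metalloproteinases numbered 7, of which 5 were tested and 1 rose with DZNep, against 10.8% of all tested genes. THBS1, thrombospondin 1, a matrix glycoprotein, went from 2.40 and 4.75 CPM in DMSO to 23.1 and 31.4 CPM in DZNep at 0 and 4 Gy (2.99, SE 0.21, adjusted p = 3.4e-06, edgeR). TIMP4 (1.86 to 2.57 CPM), RECK (4.15 to 5.03 CPM), a membrane-bound inhibitor, and BSG (1383 to 1844 CPM), an inducer of metalloproteinases, did not pass under either factor. SPOCK1, a proteoglycan, rose after radiation (0.72, SE 0.16, adjusted p = 0.0359).

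**Figure D5:**
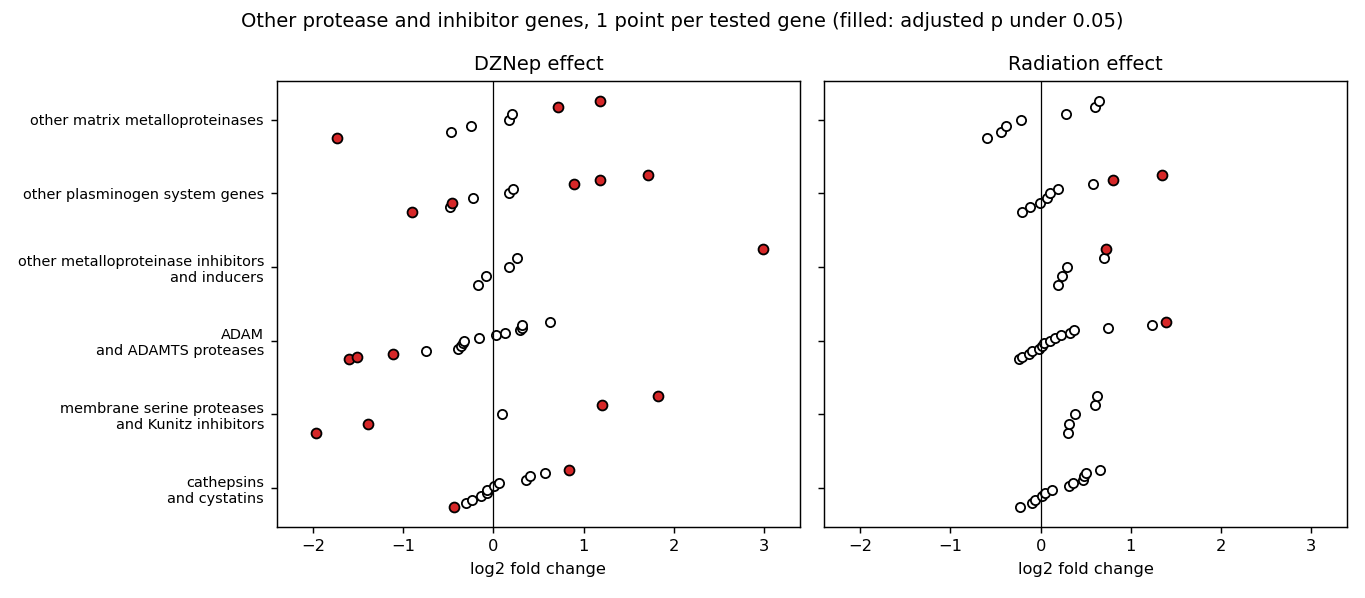
Log2 fold changes with DZNep (left) and radiation (right) of the tested genes of 6 related lists, 1 point per gene, filled where the adjusted p was under 0.05. Under DZNep THBS1 lies farthest right at 2.99 and HTRA1 farthest left at -1.97; under radiation the filled points include LRP1, SPOCK1 and ADAMTS7.

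Genes with the most similar pattern to each member were sought over the 4 libraries among 8501 tested genes at 10 CPM or more in at least 1, by the Euclidean distance of centred log2(CPM + 1). Nearest to MMP1 were ANKRD1 (distance 0.211), at 1.79, 2.87, 20.5 and 20.5 CPM in the 4 libraries, and FBXO32 (0.274). Nearest to PLAU were C10orf55 (0.0623), which overlaps it, and the integrin gene ITGA3 (0.127), at 24.6, 48.4, 74.9 and 120 CPM. MMP10 was followed by SOX4 and ELL2, PLAT by ADGRE5 and TCEAL3, and PLAUR by GPX4 and CHMP5. TIMP1 was followed by RNF31 and TM9SF4, TIMP2 by EEF1A2 and MARVELD1, and TIMP3 by INO80B-WBP1 and WBP1. With 4 points per gene and that many candidates, close matches can arise without any link, and these names are a description only.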

How the data were processed

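RNA of 4 NCI-H460 samples was made into Lexogen SENSE libraries, per the labels' protocols. For each library the authors deposited a table of raw counts by gene symbol. TopHat, edgeR and hg19 are named in the submitters' processing notes; for versions, counter and strand use the entry is "not given in the sources used here". Even values made up 55.9% to 58.1% of the counts from 1 to 59 per library, and if mates of 1 fragment were counted separately, counting intervals are too narrow.

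TMM scaling (factors 0.979 to 1.01) and tests used edgeR 4.0.16 under R 4.3.3. A gene entered the test if 2 or more libraries reached 1 CPM (13378 genes). Drug and dose were additive terms of 1 model, tested with the quasi-likelihood test and Benjamini-Hochberg adjustment over all of them at 0.05. The model had 1 residual and 11.5 prior degrees of freedom, and SE is the log2 fold change over the root of F. The model was also run on simulated counts with a common dispersion and drug effects only. That run does not show how it performs on these libraries. Ratios of 2 libraries used a prior count of 2. Exon lengths came from GENCODE 29, promoters from RefSeq.

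The members, lists and tests were chosen with earlier results of these data known. Named genes were all 9 members, up to 4 (DZNep) and 2 (radiation) called genes per list with the largest effect, and the 2 nearest patterns per member; a gene that this rule names is not reported here; markers, overlapping or adjacent genes and other list genes that did not pass, and S100A10, were named after their values were seen. Alternatives were RLE and plain scaling, no filter, a 10 CPM filter, DESeq2 1.42.0, leaving out the other factor, and prior counts of 0.5 and 8.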

Additional observations from a re-analysis of the deposited data

Results flagged for a closer look

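Radiation ratios pointed in opposite directions with and without DZNep for 3 of the 8 tested members, against 34.3% of all tested genes. These shares are close, so the count is not read as a result about the members. For MMP1 the ratio in DZNep minus that in DMSO was -0.86 on the log2 scale, for MMP10 it was -0.89 and for PLAUR 0.15. The counting interval of the MMP10 ratio in DZNep includes 0. The DZNep ratio of TIMP1 was 0.07 at 0 Gy and -0.01 at 4 Gy, a difference of -0.088, where 25.8% of tested genes had opposite signs. The counting interval of its 4 Gy ratio also includes 0. Each group is 1 library, so none of these differences was tested.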

How the results depend on the processing

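MMP1 passed for DZNep under all 6 alternatives, with log2 fold changes of 2.64 to 2.69. Leaving the other factor out of the model ended the DZNep calls of MMP10 (1.10), PLAU (1.29), PLAT (0.86), PLAUR (0.48) and TIMP2 (-0.57) and the radiation call of PLAU (0.74), and turned the radiation value of MMP1 to -0.049; that fit takes the other factor as spread. It called 355 genes higher and 366 lower with DZNep and 0 and 0 with radiation (524 at an unadjusted p under 0.05). PLAUR also missed the threshold without the filter (0.49). Of 46 member values each, 40 for DZNep and 44 for radiation kept their direction and side of the threshold. Radiation calls over all genes, 290 higher and 120 lower, became 134 and 65 without the filter, 590 and 441 with a 10 CPM filter, 452 and 217 with DESeq2, and 364 and 281 under plain library size. The 10 CPM filter left out MMP10 and TIMP3, and MMP3 entered only without a filter. Of 128 ratios of 2 libraries recomputed, 118 stayed inside their counting interval, and the largest shift was 0.0443. No paired analysis was possible because each group is 1 library and the labels give no replicate numbers. MMP3, at 0 to 3 counts, was too low in these libraries for a direction to be read.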

Other observations

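Genes of neighbouring protease families are given beside the 10.8% of all tested genes that rose with DZNep and the 12.3% that fell. Of 15 tested ADAM and ADAMTS genes 0 rose, 3 fell and 12 did not pass, against 23.1% of all tested genes called in either direction. The median was -0.33 against -0.02 over all tested genes. With so few genes the counts are not read as a result about the list. ADAM8 fell by 1.60 (SE 0.32), from 2.34 and 4.45 CPM in DMSO to 0.611 and 1.81 CPM in DZNep at 0 and 4 Gy. ADAM12 fell by 1.11 (SE 0.26). ADAMTS7 fell by 1.52 with DZNep (SE 0.27) and rose by 1.38 with radiation (SE 0.27, adjusted p = 0.0178, edgeR), at 3.35, 10.6, 1.44 and 3.06 CPM (DMSO at 0 and 4 Gy, then DZNep at 0 and 4 Gy). The sheddase genes ADAM10 and ADAM17 did not pass under either factor.

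Of 5 tested membrane and secreted serine proteases and their inhibitors, 2 rose and 2 fell with DZNep, and 1 of the rises, TMPRSS3, passed the filter on low counts through the DZNep libraries alone. HTRA1, a secreted serine protease, fell by 1.97 (SE 0.21, adjusted p = 5.4e-05, edgeR), from 10.7 and 14.2 CPM to 2.91 and 3.39 CPM. SPINT1, an inhibitor of membrane serine proteases, fell by 1.39 (SE 0.198). SLPI, a secreted inhibitor of leukocyte proteases, rose by 1.20 (SE 0.199), and TMPRSS3 stood at 0.311 and 0.348 CPM in DMSO and 1.01 and 1.35 CPM in DZNep, a difference that its entry into the test required in part. Of 12 tested cathepsins and cystatins 10 did not pass, 1 rose and 1 fell, too few calls to compare the list with all tested genes. The rise was that of CTSL, cathepsin L, by 0.84 (SE 0.13), from 957 and 934 CPM to 1653 and 1736 CPM. The fall was that of the cathepsin inhibitor CST3, at -0.44 (SE 0.14, adjusted p = 0.0411, edgeR). After radiation neither of these last lists held a call, against 3.06% of all tested genes called in either direction.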
